A study of Mus musculus with 48 samples.

Results

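Primary mouse sarcomas were compared with allografted sarcomas after the combination of 20 Gy of radiation and an antibody against PD-1, across all genes of a bulk RNA-seq count table. The comparison comprised 8 primary tumours and 4 allografts, 12 of the 48 tumours of the series, chosen by their group label. The primary tumours arose in p53 FL/FL mice, in which the p53 gene is flanked by sites for Cre recombinase. An adenovirus carrying Cre was injected into the gastrocnemius at 6 to 10 weeks of age, and 300 µg of the carcinogen MCA (methylcholanthrene) followed. The allografts grew from 50000 cells of line 402230 injected with matrigel into the same muscle of syngeneic mice, whose age and p53 genotype are not given in the sources used here. All allografts therefore stem from 1 line. The labels do not say whether the primary tumours came from separate mice, so p-values measure the spread between these samples. All mice had the 129/SvJae strain background, and all 12 tumours received 200 µg of muDX400 (a murine anti-PD-1 antibody) and then 20 Gy to the hind limb at a volume of about 150 mm3, with harvest 3 days later. The other 36 tumours were 8 primary tumours and 4 allografts in each of 3 arms, 0 Gy with isotype antibody, 0 Gy with anti-PD-1 and 20 Gy with isotype antibody.

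PD-1 is an inhibitory receptor of activated T cells, and its blockade acts on T cells that recognise antigen presented by MHC molecules on tumour and myeloid cells. Ionising radiation breaks DNA and, in cells with working p53, induces p53 target genes. A transplanted line and a tumour that arises in place differ in how long host and tumour coexisted before treatment. Imprinted genes are expressed from 1 parental copy, and many are active in fetal tissue.

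The total count per tumour was 36808039 to 41907769 in the allografts and 34742377 to 51436481 in the primary tumours. Trp53, the gene targeted in the primary tumours, was at 37.9, 44.6, 40.7 and 44.7 CPM, the count scaled to the size of the library in allografts 1 to 4 and at 21.0 to 52.5 CPM, median 31.2, in the primary tumours. A count over the whole gene in tissue that also holds host cells does not check the deletion. The mesenchymal gene Vim, which encodes vimentin, was at 1468 to 2570 CPM in the allografts and 1723 to 4142 CPM in the primary tumours. The 6 mesenchymal markers (Vim, Col1a1, Pdgfra, Pdgfrb, S100a4 and Thy1) together reached 3284 to 8587 CPM and 4618 to 24240.3 CPM, so both groups expressed mesenchymal genes. In tissue that also holds host cells these markers do not identify sarcoma cells. Over all 17674 tested genes the typical log2 CPM distance (root mean square over genes) had a median of 1.19 over the 28 pairs of primary tumours (range 0.915 to 2.05), 0.835 over the 6 pairs of allografts (0.730 to 1.13) and 1.25 over the 32 pairs between the groups. The pairs share tumours, so these distances are a description. Without primary tumour 4 the median over pairs of primary tumours was 1.16 (0.915 to 1.55). Primary tumour 4 stood apart by skeletal muscle genes, which took 9.57% of its counts, and allograft 3 by liver genes. Titles of all 8 primary tumours but of 1 of 4 allografts hold an identifier that begins with the digit 4, and Xist was above 10 CPM in 3 of 4 allografts and 3 of 8 primary tumours.

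In the fit of the 12 tumours alone, 1 of 17674 genes passed an adjusted p of 0.05 (0.00566% of genes tested; edgeR's quasi-likelihood F test with Benjamini-Hochberg adjustment). It was Gm17833 (ENSMUSG00000106484), a processed pseudogene, named here after its values were seen. Gm17833 was at 1.11, 0.622, 1.23 and 1.89 CPM in allografts 1 to 4 and at 0.0249 to 0.152 CPM, median 0.0952, in the primary tumours. Such low values in the primary tumours rest on few counts. All primary tumours lay below all allografts, and the log2 fold change of primary against allograft was -3.71 (SE 0.40, adjusted p = 0.00994). The gene spans chr5:114108926-114109990 on the plus strand (GRCm38, the mm10 build), inside an intron of Usp30 on the same strand, and shares 0 exonic bases with it. Reads from unspliced Usp30 RNA could be counted to it and cannot be told apart. Usp30 itself, the gene of a mitochondrial deubiquitinase, was at 18.7 to 23.7 CPM in the allografts and 23.3 to 29.3 CPM in the primary tumours (log2 fold change 0.22, SE 0.13, unadjusted p = 0.0965 in edgeR). No run of 31 bases of the Gm17833 transcript occurs in a transcript of another gene of the GENCODE M21 annotation, and its first 120 bases, chr5:114108926-114109045 on the plus strand, are shown because it is the 1 gene called, in lower case throughout since no stretch is singled out.
Gm17833: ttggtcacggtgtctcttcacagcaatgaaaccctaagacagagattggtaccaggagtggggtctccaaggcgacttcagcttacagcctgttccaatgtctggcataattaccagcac
The call was lost without allograft 1 (adjusted p = 0.0516), without allograft 3 (0.0674) or without allograft 4 (0.0526). With the identifier digit as a covariate allografts 2 to 4 are taken up by the digit and allograft 1 alone stands against the primary tumours, which gave 0.177. The log2 fold change stayed between -3.42 and -3.89 in these and the other alternatives of the fit of 12.

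Behind that 1 call, 2965 genes (16.8%) had an unadjusted p below 0.05 in edgeR, 1626 higher and 1339 lower in primary tumours. That number was 1643 without allograft 3 and 3935 without primary tumour 4, the lowest and highest leaving out 1 tumour. For 426 genes (2.41%) the groups did not overlap, 234 with all primary tumours above all allografts (1.32%) and 192 with all below (1.09%). The median log2 fold change over all genes was 0.03, and 52.8% of genes were above 0. The fit of all 48 tumours, which estimates the spread from all 8 groups, called 1309 of 19327 genes for the same contrast (6.77%), 720 higher (3.73%) and 589 lower (3.05%) in primary tumours. That count was 155 without allograft 3, 529 without allograft 2, 688 without allograft 1, 804 without primary tumour 8, 854 without primary tumour 6, and 2356 of 19286 (12.2%) without primary tumour 4, 1286 higher (6.67%) and 1070 lower (5.55%). In all 12 fits that leave out 1 tumour, 77 higher and 61 lower genes stayed called. Those of them that were tested in the fit of 12 all had the same sign there with an unadjusted p below 0.05 (adjusted p 0.00994 to 0.210). The genes were chosen by calls on these same 12 tumours, so that result was largely fixed in advance and is no independent support. Genes are called below only in the fit of all 48 tumours unless stated, log2 fold changes and SE are from the fit of 12, and the adjusted p of both fits is given. Of 150 genes selected by rule, 78 were called with all 48 tumours, 31 of them in all 12 leave-one-out fits, and of the other 47 the call of 45 was lost without allograft 3. The 2 exceptions, Hoxd8 and Mmp13, lost it without allograft 1.

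**Figure D1:**
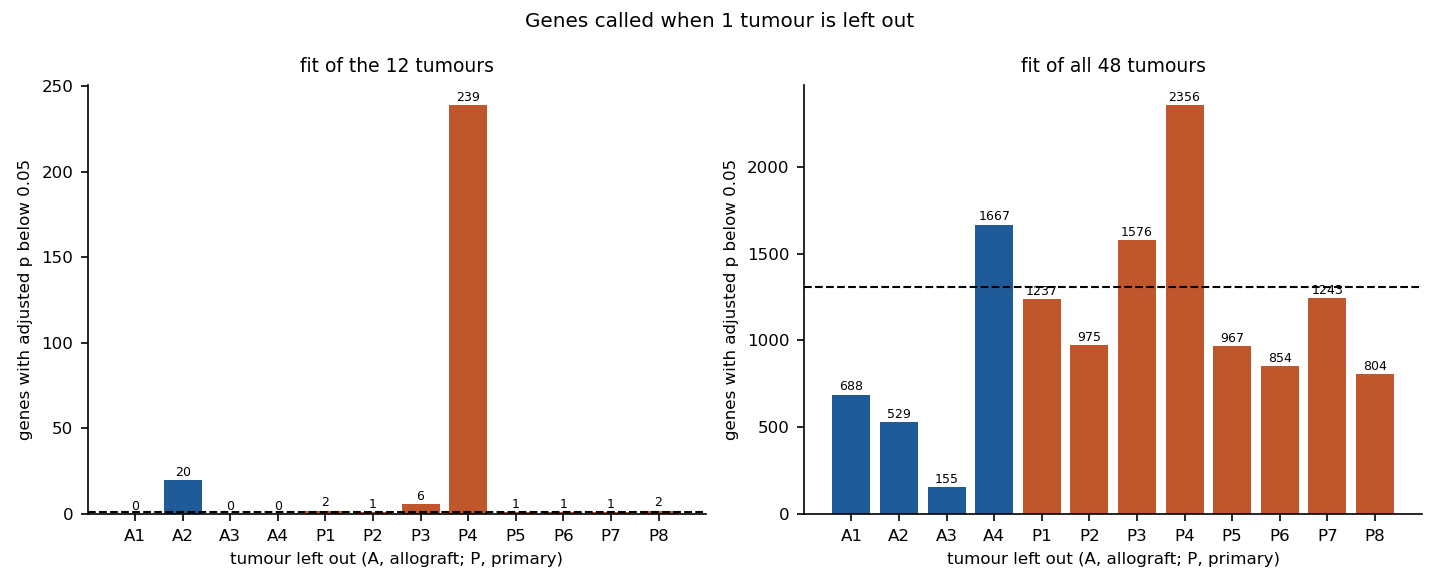
Number of genes with an adjusted p below 0.05 (vertical axis, from 0) when each of the 12 tumours in turn is left out of the fit of 12 (left) or of 48 tumours (right); the dashed line is the count with no tumour left out, 1 and 1309. The count is highest without primary tumour 4, at 239 and 2356, and in the fit of 48 lowest without allograft 3, at 155.

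Of 25 tested imprinted genes of a list of 27, 19 had a log2 fold change above 0 and 6 below, with a median of 0.59 against 0.03 over all genes. With all 48 tumours 6 of the 27 tested in that fit were called, all higher (Sgce, Peg10, Ndn, Dlk1, Rian and Mirg), against 3.73% of all genes. Leaving out 1 tumour gave 2 without allograft 3 to 10 without primary tumour 4. Sgce, which encodes epsilon-sarcoglycan, was at 9.01, 12.5, 5.15 and 11.1 CPM in allografts 1 to 4 and at 19.8 to 55.4 CPM, median 44.9, in primary tumours. The groups did not overlap for Sgce (log2 fold change 2.13, SE 0.33, adjusted p = 0.0695 with 12 and 1.44e-06 with 48 tumours, 5.43e-08 to 9.01e-05 over the leave-one-out fits). Its neighbour Peg10, a gene derived from a retrotransposon, starts beside it on the opposite strand of chromosome 6. Peg10 was at 7.50, 3.69, 2.44 and 5.94 CPM in the allografts and at 4.17 to 129 CPM, median 78.8, in the primary tumours. Primary tumour 4 had the 4.17 CPM and lay among the allografts, while the other 7 were at 30.2 CPM or more (log2 fold change 3.91, SE 0.75, adjusted p = 0.0900 with 12 and 0.000773 with 48 tumours, 3.13e-05 to 0.0109 leaving out 1 tumour).

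Dlk1, Rian and Mirg lie in 1 imprinted domain. Dlk1, which encodes a Notch-related surface protein of fetal and progenitor tissue, was at 4.46, 4.07, 1.13 and 4.02 CPM in allografts and at 4.29 to 439.8 CPM, median 98.5, in primary tumours. Primary tumours 4 and 7 (6.04 and 4.29 CPM) were at or near the allograft level, and the other 6 were at 38.9 CPM or more (log2 fold change 5.46, SE 1.31, adjusted p = 0.105 with 12 and 0.00979 with 48 tumours). The long noncoding RNA Rian was at 4.70, 50.8, 10.6 and 17.8 CPM in allografts and at 21.2 to 123.3 CPM, median 81.1, in primary tumours. Allograft 2 was above 2 of the primary tumours for Rian (log2 fold change 1.87, SE 0.59, adjusted p = 0.170 with 12 and 0.0190 with 48). Mirg, a microRNA host transcript of the same domain, was at 0.396 to 1.604 CPM in allografts and 0.751 to 7.23 CPM in primary tumours, with primary tumour 4 lowest again.

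Among 36 tested transcription factor genes of the Dlx, Hox, limb and mesodermal families, 17 were above 0 and 19 below, with a median log2 fold change of -0.10 (-0.25 to -0.011 leaving out 1 tumour). Of the 40 tested in the fit of 48, 1 was called higher (Tbx15) and 6 lower (Dlx1, Hoxd11, Hoxd10, Hoxd8, Dmrta2 and Msx1) with all 48 tumours, against 3.73% of all genes called higher and 3.05% lower. Leaving out 1 tumour gave 1 lower call without allograft 1, 2 without allograft 3, 8 without primary tumour 4 and 3 to 5 otherwise, and Dlx1 and Hoxd11 were called in 1 and 2 of these 12 fits. Tbx15, a T-box gene of limb and muscle development, was at 26.8, 53.97, 43.2 and 33.6 CPM in allografts and at 74.8 to 138.1 CPM, median 102.9, in primary tumours. The groups did not overlap (log2 fold change of 1.37, SE 0.21, adjusted p = 0.0695 with 12 and 0.00312 with 48 tumours, 0.00160 to 0.0220 leaving out 1 tumour). Dmrta2, a gene of neural development, was at 13.2, 2.15, 8.50 and 11.3 CPM in allografts and at 0.0996 to 1.98 CPM, median 0.343, in primary tumours. The groups stood apart for Dmrta2 too, by little between allograft 2 and primary tumour 4 (log2 fold change -4.08, SE 0.69, adjusted p = 0.0695 with 12 and 0.000221 with 48 tumours, 1.22e-05 to 0.00245 leaving out 1 tumour). Hoxd8, a body-axis gene, was at 62.2, 18.4, 40.2 and 57.8 CPM in allografts and at 7.37 to 27.3 CPM, median 16.3, in primary tumours.

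Further genes called in all 12 leave-one-out fits are described singly, and their roles were not tested as a group. Sox2, a factor of neural and stem cells, was at 38.4, 5.48, 27.0 and 46.1 CPM in allografts and at 0.0263 to 5.83 CPM in primary tumours, with primary tumour 5 just above allograft 2. Nts, which encodes the peptide neurotensin, was at 12.9, 15.4, 32.8 and 9.98 CPM in allografts and at 0.195 to 3.38 CPM, median 1.36, in primary tumours. Every primary tumour was below every allograft for Nts (log2 fold change -3.49, SE 0.58, adjusted p = 0.0695 with 12 and 0.000960 with 48 tumours). Kcnk12, a potassium channel gene, was lower without overlap as well, at 2.54 to 14.3 against 0.159 to 1.195 CPM. In the other direction Nptx2 (neuronal pentraxin 2) was at 0 to 0.359 CPM in allografts and 0.239 to 20.5 CPM in primary tumours, and Gria1, a glutamate receptor subunit gene, at 0.0493 to 0.407 and 0.307 to 54.9 CPM. For both, primary tumour 4 alone lay within the allograft range. Pcdh10, a protocadherin gene, was at 0.0246 to 0.735 CPM and 0.580 to 12.8 CPM, also with primary tumour 4 lowest. Sox2, Nts, Kcnk12, Nptx2, Gria1, Pcdh10, Sgce, Peg10, Tbx15 and Dmrta2 were called in all 12 leave-one-out fits of 48 tumours.

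The 250 bases before the RefSeq start of 3 genes that were lower in primary tumours are shown 5′ to 3′ for their sequence context (GRCm38.p6). In the 2 genes with a secreted product, Mmp13 (an interstitial collagenase) and Nts, capitals mark the AP-1 motif TGACTCA, searched on both strands, so that TGAGTCA is its other strand. It lies 35 to 29 bases before the start of Mmp13 and 207 to 201 bases before that of Nts. Of all 32851 promoters in the table, 4.46% hold the motif. In Dmrta2 capitals mark CG, a palindrome with 19 matches, a number reached by 19.7% of promoters, whose median is 6. The 3 genes were chosen after their values were seen, and a match of letters shows no bound factor.
Mmp13, chr9:7272264-7272513, plus strand: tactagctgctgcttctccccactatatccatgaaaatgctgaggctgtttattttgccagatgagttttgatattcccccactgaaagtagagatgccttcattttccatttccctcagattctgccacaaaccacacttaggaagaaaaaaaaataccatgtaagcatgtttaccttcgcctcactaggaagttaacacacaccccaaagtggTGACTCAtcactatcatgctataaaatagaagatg
Nts, chr10:102490419-102490668, minus strand: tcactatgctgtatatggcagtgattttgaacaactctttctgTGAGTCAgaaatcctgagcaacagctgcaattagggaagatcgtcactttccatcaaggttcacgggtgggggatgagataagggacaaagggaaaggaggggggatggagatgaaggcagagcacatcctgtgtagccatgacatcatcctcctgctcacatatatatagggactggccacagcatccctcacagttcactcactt
Dmrta2, chr4:109977775-109978024, plus strand: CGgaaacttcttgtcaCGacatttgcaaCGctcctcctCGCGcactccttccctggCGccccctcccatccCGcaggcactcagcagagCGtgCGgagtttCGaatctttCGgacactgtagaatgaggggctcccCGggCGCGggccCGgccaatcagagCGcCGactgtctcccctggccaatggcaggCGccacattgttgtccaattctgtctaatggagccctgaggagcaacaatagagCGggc

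Some of the smallest p-values belonged to genes of other roles. Zfp51, a zinc finger gene, was at 31.6, 23.6, 33.9 and 19.7 CPM in allografts and at 6.25 to 12.5 CPM, median 8.34, in primary tumours. It had the second-smallest adjusted p of the fit of 12 (log2 fold change -1.59, SE 0.22, adjusted p = 0.0547, and 1.03e-05 with 48 tumours). Bmp6, a growth factor gene of the bone morphogenetic protein family, was at 2.28, 2.56, 2.34 and 5.59 CPM and at 8.94 to 43.9 CPM, median 17.1 (log2 fold change 2.62, SE 0.49, adjusted p = 0.0900 with 12 and 0.00349 with 48 tumours). Slc6a8, which encodes the creatine transporter, was at 68.2, 44.5, 46.6 and 62.1 CPM and at 76.6 to 188 CPM, median 151. All primary tumours were above all allografts for Bmp6 and Slc6a8 and below them for Zfp51. Smaller differences without overlap were seen for Gypc (glycophorin C, 19.4 to 25.2 against 34.5 to 63.0 CPM), Tcf7l1 (a Wnt pathway transcription factor, 6.95 to 11.4 against 15.2 to 32.5 CPM), Arf2 (a small GTPase, 60.2 to 69.1 against 29.1 to 51.7 CPM) and Sms (spermine synthase, 90.6 to 170.4 against 38.7 to 82.6 CPM). Pthlh, which encodes a hormone related to parathyroid hormone, was at 104.97, 13.0, 65.5 and 110.6 CPM in allografts and at 0.7101 to 36.7 CPM in primary tumours, so that allograft 2 lay within the primary range.

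**Figure D2:**
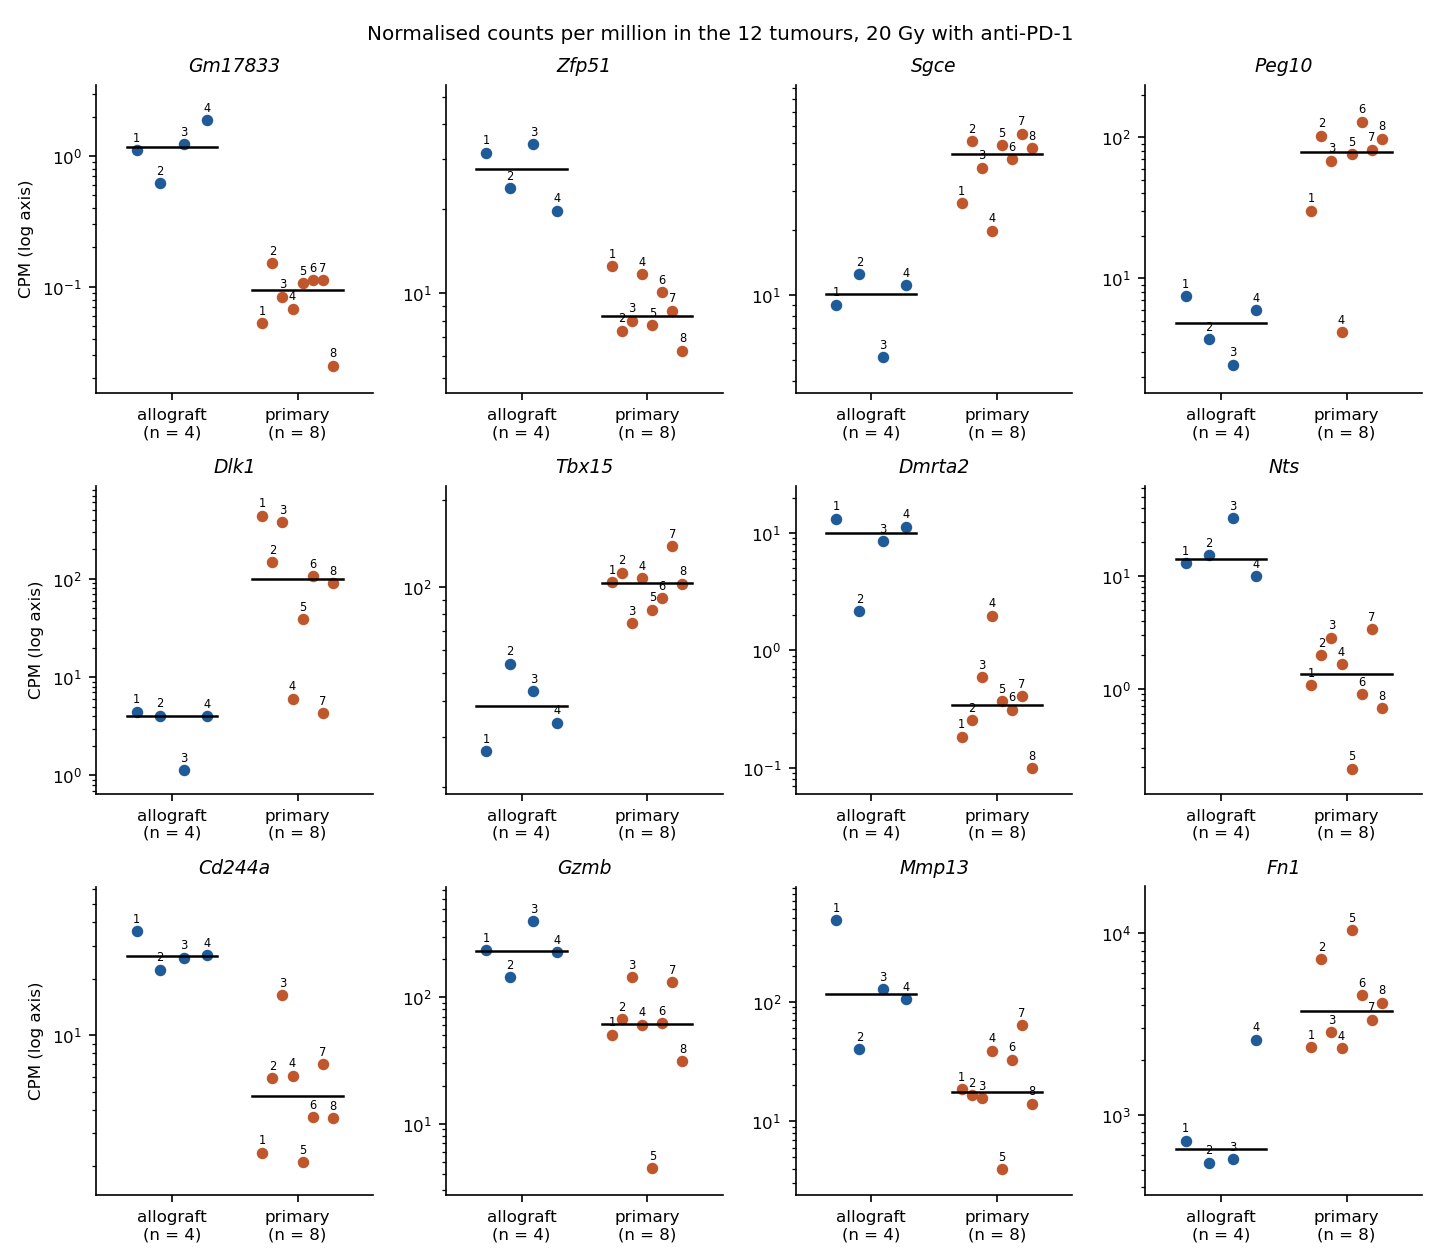
Normalised CPM (log axis) of 12 genes in the 4 allografts (blue) and 8 primary tumours (orange); each point is a tumour with its number, and bars are medians. Groups do not overlap for Gm17833, Zfp51, Sgce, Tbx15, Dmrta2, Nts, Cd244a and Gzmb, while primary tumour 4 lies with the allografts for Peg10 and allograft 4 with the primary tumours for Fn1.

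T cell genes were not called with all tumours, and the count rested on primary tumour 4. All 15 T cell receptor and coreceptor genes had a log2 fold change below 0, with a median of -1.12, and none was called in either fit. In the fit of 48 without primary tumour 4, 11 of the 15 were called lower, against 5.55% of all genes, with a median of -1.78. Their summed level was 130, 322, 347 and 189 CPM in allografts 1 to 4 and 18.4 to 463 CPM, median 61.5, in primary tumours. Below every allograft were 6 primary tumours, and primary tumour 4, the muscle-rich one, was above every allograft. In bulk RNA fewer cells of a type cannot be told apart from less RNA per cell. Cd3e, a chain of the receptor complex, was at 9.41 to 24.1 CPM in allografts and 0.195 to 47.4 CPM in primary tumours, and Cd8a, the coreceptor of killer T cells, at 15.9 to 45.9 and 0.549 to 40.8 CPM (adjusted p = 0.659 and 0.354 in the fit of 12). Without primary tumour 4 both were called lower in the fit of 48, with edgeR adjusted p of 0.0221 for Cd3e and 0.00938 for Cd8a. For each that was the 1 call in the 12 leave-one-out fits, where the adjusted p reached 0.664 for Cd3e and 0.354 for Cd8a. Pdcd1, the gene of PD-1, was at 8.85 to 18.5 and 0.372 to 24.8 CPM (adjusted p = 0.497 with 12 tumours, and 0.0160 with 48 but without primary tumour 4). Pdcd1 too was called in that 1 leave-one-out fit only.

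Of 12 cytotoxic genes 11 were below 0, with a median of -1.37, and 2 were called lower with all 48 tumours. Of all genes 3.05% were called lower in that fit and 5.55% without primary tumour 4, the shares to set beside each count in this paragraph. Leaving out 1 tumour gave 6 calls without primary tumour 4 and 5 without primary tumour 3, and 0 without allograft 2, allograft 3 or primary tumours 2, 6 or 8. The protease gene Gzmb was at 235, 145, 398 and 226 CPM in allografts and at 4.45 to 143.2 CPM, median 61.3, in primary tumours. All primary tumours were below all allografts, yet Gzmb passed neither fit with all tumours and 2 of the leave-one-out fits (log2 fold change -1.87, SE 0.59, adjusted p = 0.168 with 12 and 0.0581 with 48 tumours). Called with all 48 tumours were Gzmk, another granzyme (2.18 to 18.02 against 0.0531 to 6.59 CPM), and Serpinb9, the granzyme B inhibitor (66.9 to 90.7 against 7.62 to 62.4 CPM), with adjusted p of 0.0291 and 0.0496. Those calls held in 7 and 4 of the 12 leave-one-out fits. Of 10 NK cell genes 7 were below 0 (median -0.90), and Cd244a and Klrd1 were called lower, with 1 to 4 calls leaving out 1 tumour. Cd244a, a SLAM-family receptor of NK and T cells, was at 35.8, 22.3, 25.9 and 26.7 CPM in allografts and at 2.11 to 16.3 CPM, median 4.77, in primary tumours. The groups did not overlap, and the call held in all 12 leave-one-out fits (log2 fold change -2.24, SE 0.46, adjusted p = 0.0900 with 12 and 0.00428 with 48 tumours). Of 9 inhibitory receptor genes 8 were below 0 (median -0.76, and -0.24 without allograft 2) and Cd160 was called lower, with 0 calls without allograft 2 or 3 and 3 without primary tumour 4. Of 8 regulatory T cell genes 6 were below 0 (median -0.32, and -0.77 without primary tumour 4 to -0.16 without primary tumour 5) with 0 calls, 2 lower without primary tumour 4. Their master factor Foxp3 was at 2.18 to 6.36 CPM in allografts and 0.496 to 22.7 CPM in primary tumours (log2 fold change 0.48, SE 0.95), with the highest value in primary tumour 4.

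**Figure D3:**
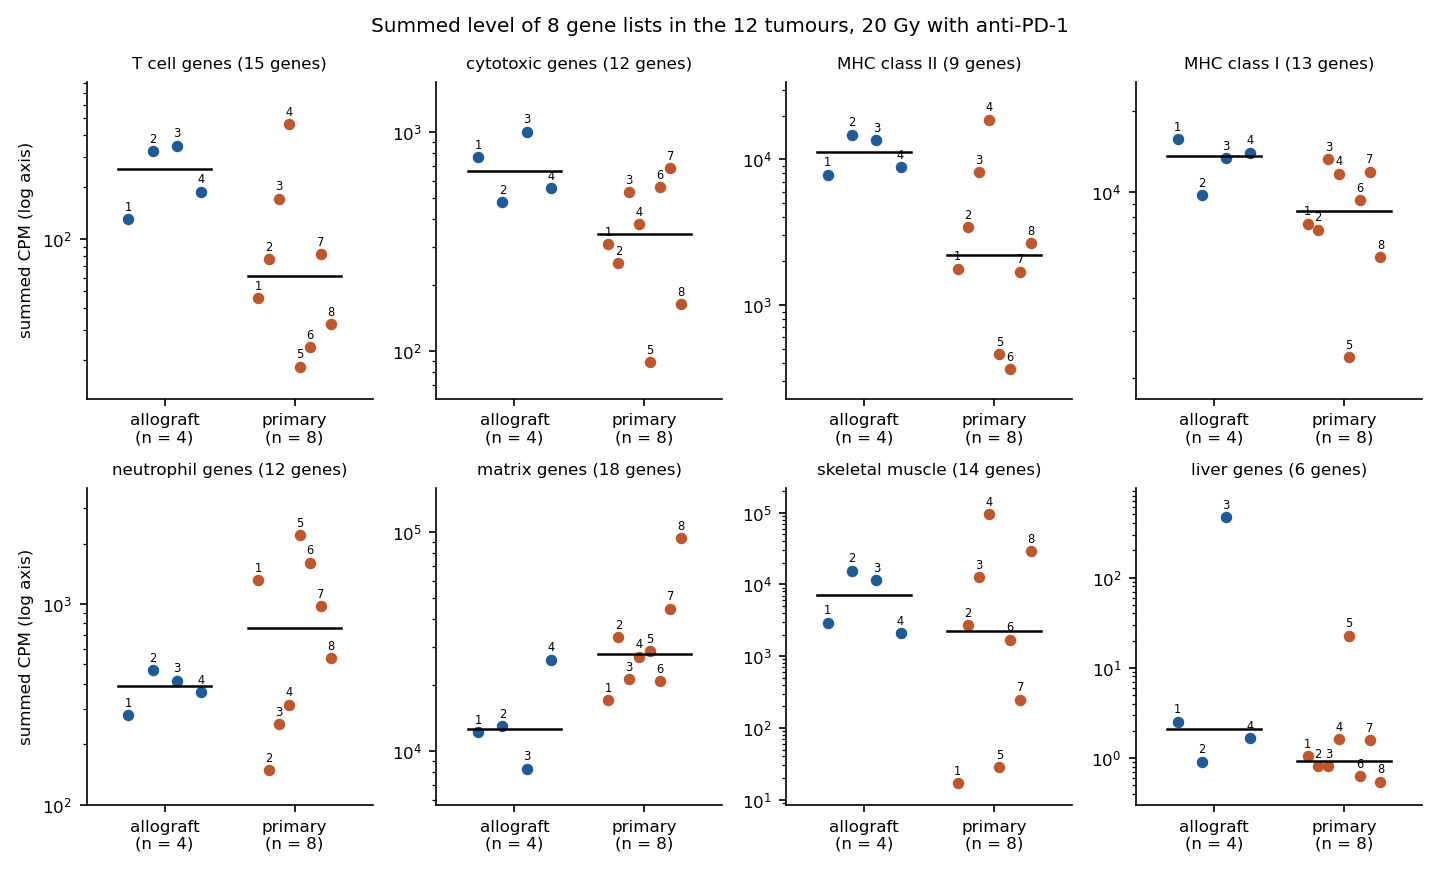
Summed CPM (log axis) of 8 gene lists in the 4 allografts (blue) and 8 primary tumours (orange), each point a tumour with its number and bars the medians. T cell and MHC class II sums lie below every allograft in 6 primary tumours and above every allograft in primary tumour 4, whose skeletal muscle sum is also the highest.

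All 13 MHC class I presentation genes were below 0, with a median log2 fold change of -0.62. The immunoproteasome subunit genes Psmb8, Psmb9 and Psmb10 were called lower with all 48 tumours (adjusted p = 0.0300, 0.0428 and 0.0263), in 7, 3 and 8 of the leave-one-out fits. These are 3 of the 13, against 3.05% of all genes called lower. None of the 13 was called without allograft 1, allograft 3 or primary tumours 6 or 8. Psmb9 was at 236, 171, 305 and 187 CPM in allografts and at 18.5 to 170 CPM, median 85.8, in primary tumours, without overlap by a margin of about 1 CPM (a log2 fold change of -1.34, SE 0.43, adjusted p = 0.177 with 12 tumours). All 9 MHC class II genes were below 0 with a median of -1.30. None was called with all tumours. In the fit of 48 without primary tumour 4, 7 were called lower (median -1.85), against 5.55% of all genes. Their sum was 7826 to 14778 CPM in allografts and 360 to 18742 CPM, median 2219, in primary tumours, again with 6 primary tumours below and primary tumour 4 above every allograft. H2-Ab1, a class II beta chain gene, was at 1990 to 3496 CPM and 69.9 to 4183 CPM (a log2 fold change of -1.40, SE 0.85, adjusted p = 0.424 with 12 tumours, and 0.0118 with 48 but without primary tumour 4). H2-Ab1 was called in that 1 of the 12 leave-one-out fits only.

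All 16 interferon gamma response genes were below 0 (median -0.86). Ido1 and Socs1 were called lower, against 3.05% of all genes, with 1 to 4 calls leaving out 1 tumour. Ido1, which encodes a tryptophan-degrading enzyme, was at 25.3, 3.71, 19.7 and 23.1 CPM in allografts and at 0.237 to 6.62 CPM, median 1.10, in primary tumours. Allograft 2 lay within the primary range for Ido1, and the call held in all 12 leave-one-out fits (log2 fold change -2.95, SE 0.83, adjusted p = 0.139 with 12 and 0.0118 with 48 tumours). The chemokine gene Cxcl9 was at 447 to 1295 CPM and 22.1 to 1342 CPM and was not called (log2 fold change -0.92, SE 0.75). Ifng itself was at 2.08 to 5.40 CPM in allografts and 0.0354 to 2.87 CPM in primary tumours (adjusted p = 0.332 with 12 tumours, and 0.0442 with 48 but without primary tumour 4). Ifng was called in that 1 of the 12 leave-one-out fits only. Cd274 (PD-L1), whose product binds PD-1, was at 106.1 to 164 CPM and 10.3 to 108.4 CPM (a log2 fold change of -1.13, SE 0.47, adjusted p = 0.253). Of 24 type I interferon genes 19 were below 0 with a median of -0.30 and 0 calls. That median was -0.022 without allograft 1, with 13 of the 24 below 0, and -0.16 without primary tumour 4 or 5. Primary tumour 5 was the lowest of the 12 tumours for T cell, cytotoxic, NK cell and MHC class I sums.

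Myeloid genes gave no uniform picture. Of 16 macrophage genes 11 were below 0 (median -0.45, and -0.011 without allograft 2), with 0 calls, 1 higher without allograft 2, 1 lower without primary tumour 3 and 2 lower without primary tumour 4. Adgre1, which encodes the F4/80 antigen, was at 226, 578, 247 and 244 CPM in allografts and at 28.1 to 473 CPM, median 212, in primary tumours. Of 12 neutrophil genes 8 were above 0 (median 0.59, and -0.19 without primary tumour 6), with 0 calls and a summed level of 278 to 469 CPM in allografts against 148 to 2205 CPM in primary tumours. Primary tumours fell on both sides, 5 above and 2 below every allograft. The gelatinase gene Mmp9 was at 58.0 to 140 CPM in allografts and from 36.4 to 1905 CPM, median 397, in primary tumours (adjusted p = 0.217 with 12 and 0.0775 with 48 tumours, and 0.0442 without primary tumour 4). Mmp9 was called in that 1 of the 12 leave-one-out fits only. Of 10 macrophage activation genes 5 were above 0 and 5 below (median -0.39). Tnf and Il10 were called lower with all 48 tumours, against 3.05% of all genes, and in 5 and 2 of the 12 leave-one-out fits. The list summed to 589 to 2549 CPM in allografts and 293 to 4765 CPM in primary tumours. Of 9 tested B cell genes 8 were below 0 (median -0.57, and -0.25 without allograft 2) with 0 calls, 2 lower without primary tumour 4 and 1 without primary tumour 3.

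Of 18 collagen and matrix genes 17 were above 0, with a median log2 fold change of 1.23. With all 48 tumours 5 (Fn1, Col6a2, Col6a1, Dcn and Bgn) were called higher, against 3.73% of all genes. None was called in the fit of 12, where 10 had an unadjusted p below 0.05 in edgeR, and the fit of 48 called 0 of the 18 without allograft 3, 1 without allograft 2, 2 without allograft 1 and 9 without allograft 4. Their sum was above every allograft in 5 of 8 primary tumours. Fn1, which encodes fibronectin, was at 723, 546, 571 and 2589 CPM in allografts and at 2334 to 10379 CPM, median 3741, in primary tumours. Allograft 4 was above primary tumours 1 and 4, while the other 3 allografts were below all (log2 fold change 2.07, SE 0.59, adjusted p = 0.143 with 12 and 0.0122 with 48 tumours). Bgn, the proteoglycan biglycan, was at 835, 1025, 538 and 1412 CPM and at 1500 to 3567 CPM, median 2094, without overlap (log2 fold change 1.28, SE 0.34, adjusted p = 0.121 with 12 and 0.0153 with 48). The collagen VI gene Col6a2 was at 145 to 438 CPM in allografts and 327 to 4470 CPM in primary tumours, with primary tumour 8 highest. The calls of Fn1, Bgn and Col6a2 held in 9, 10 and 10 leave-one-out fits, and each was lost without allograft 3. Tgfb2 (a TGF-beta ligand) and Tgfbr3 (its coreceptor betaglycan) were called higher, at 4.78 to 8.59 against 6.02 to 56.7 CPM and at 46.8 to 142.5 against 90.6 to 351 CPM. Both calls were lost without allograft 2 or 3 (adjusted p = 0.174 for Tgfb2 and 0.0864 for Tgfbr3 without allograft 3). The call of Tgfb2 was also lost without allograft 1 or primary tumour 8. Of the 13 TGF-beta genes tested, 7 were above 0 and 6 below (median 0.28, and 0.11 without allograft 3 to 0.49 without allograft 4). Col1a1, the major fibrillar collagen gene, was at 880 to 5250 CPM and 1208 to 20328 CPM and was not called (adjusted p = 0.471).

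The collagenase gene Mmp13 went the other way. It was at 484, 39.9, 127.9 and 105.5 CPM in allografts and at 3.97 to 63.3 CPM, median 17.5, in primary tumours. Only primary tumour 7 was above allograft 2 (log2 fold change -2.90, SE 0.66, adjusted p = 0.101 with 12 and 0.00196 with 48 tumours, 0.000967 to 0.0522 leaving out 1 tumour). Pdgfrb, a growth factor receptor gene of both the mesenchymal and the pericyte list, was called higher with all 48 tumours and in 6 of the leave-one-out fits. Of the 9 pericyte genes 7 were above 0 (median 0.69), and 1 was called higher, against 3.73% of all genes. The pericyte sums overlapped, at 617 to 2747 CPM in allografts and 339 to 4992 CPM in primary tumours. The 12 endothelial genes had a median of 0.20 with 0 calls.

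**Figure D4:**
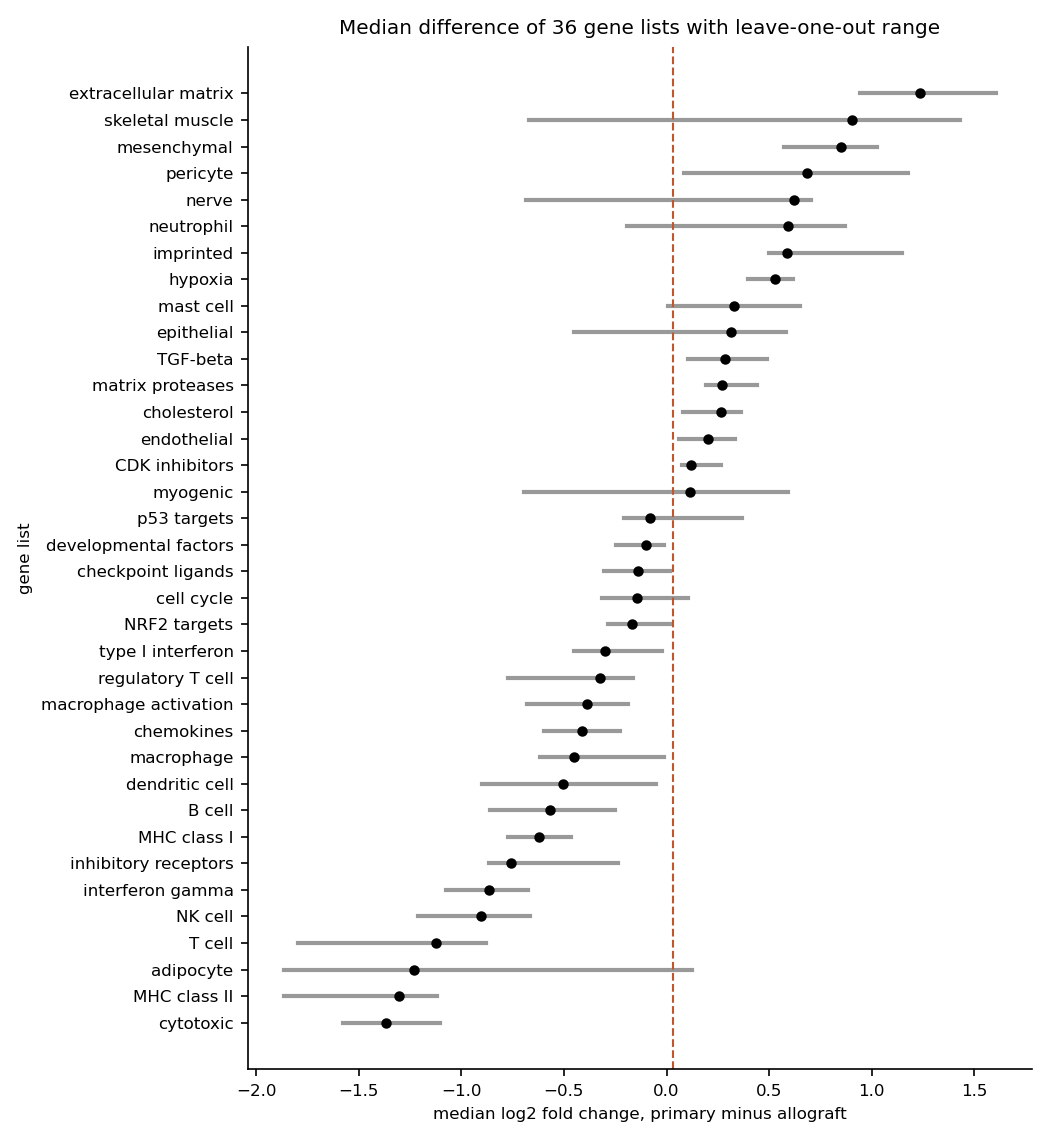
Median log2 fold change of primary against allograft tumours for 36 gene lists (the liver list, whose median of -4.80 rests on allograft 3, is not drawn) in the fit of 12 (black points), with the range over the fits that leave out 1 tumour (grey lines); the dashed line is the median over all genes, 0.03. Of the lists drawn, the extracellular matrix median is the highest at 1.23 and the cytotoxic median the lowest at -1.37, and the skeletal muscle range crosses 0.

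Of 20 cell cycle genes 6 were above 0 and 14 below (median -0.15, and -0.31 without allograft 2 to 0.11 without allograft 4). Rrm2, a subunit of ribonucleotide reductase, was the 1 gene of the list called lower, near the 3.05% of all genes called lower. Rrm2 was at 132.9, 52.3, 107.5 and 128.8 CPM in allografts and at 29.8 to 65.2 CPM, median 47.5, in primary tumours (log2 fold change -1.15, SE 0.28, adjusted p = 0.105 with 12 and 0.00312 with 48 tumours, in all 12 leave-one-out fits). Mki67, the Ki-67 proliferation marker, was at 53.9 to 171 and 53.97 to 148 CPM (a log2 fold change of -0.19, SE 0.32). Of 11 genes of cyclin-dependent kinase inhibitors and partners 7 were above 0 and 4 below (median 0.12). Cdkn2a and Cdkn2b were called higher and Cdkn2d lower, against 3.73% and 3.05% of all genes. Leaving out 1 tumour gave 0 to 3 calls in each direction, and 0 in both without allograft 3. Cdkn2a, which encodes p16 and p19Arf, was at 289, 51.5, 169 and 152 CPM in allografts and at 25.7 to 1118 CPM, median 478, in primary tumours. Primary tumour 4 had the 25.7 CPM, below all allografts, and the other 7 were at 391 CPM or more, above all allografts (log2 fold change 1.64, SE 0.69, adjusted p = 0.255 with 12 and 0.0207 with 48 tumours). Cdkn2b, its neighbour, showed the same order, with 6.25 CPM in primary tumour 4, 42.5 to 75.5 CPM in the other 7 and 9.86 to 34.4 CPM in allografts. Both calls were lost without allograft 2 or 3. Of 18 p53 target genes 8 were above 0 and 10 below (median -0.08, and -0.21 without allograft 4 to 0.37 without allograft 2). Gdf15 was called higher (1.31 to 2.68 against 1.84 to 8.67 CPM), with no gene of the list called higher in 6 of the 12 leave-one-out fits. This 1 call among 18 genes is near the 3.73% of all genes called higher. Cdkn1a, which encodes the cell cycle inhibitor p21 and is a classical p53 target, was at 177 to 323 CPM in allografts and 71.4 to 475 CPM in primary tumours (log2 fold change 0.12, SE 0.39, adjusted p = 0.903).

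Skeletal muscle genes varied between the tumours of 1 group, and muscle around a tumour cannot be told apart from expression in the sarcoma cells. The 14 skeletal muscle genes summed to 2935, 15559, 11462 and 2073 CPM in allografts 1 to 4. In primary tumours the sum ran from 16.9 to 95668 CPM, with a median of 2212. Primary tumours 4 (95668 CPM) and 8 (28829 CPM) were above every allograft and 4 primary tumours below. The fast myosin gene Myh4 alone reached 21296 CPM in primary tumour 4. Of the 14 muscle genes 12 were above 0 (median 0.90), 0 were called, and the median was -0.67 without primary tumour 4 and -1.78 without primary tumours 4 and 8. Without those 2 tumours the fit called 95 higher and 40 lower genes, and without primary tumour 4 alone 239. The biological coefficient of variation was 0.541 in the fit of 12, 0.488 without primary tumour 4 and 0.472 without primary tumours 4 and 8. It was 0.592 in primary tumours and 0.400 in allografts fitted alone. Mean muscle level as a covariate gave 5 called genes with 12 tumours and 1440 with 48. The part of muscle in the other results was not tested further.

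Liver genes marked single tumours. The 6 liver markers summed to 468 CPM in allograft 3 and to 22.6 CPM in primary tumour 5, and to 0.548 to 2.52 CPM in the other 10 tumours. Alb, the albumin gene, was at 307 CPM in allograft 3 and 11.7 CPM in primary tumour 5, and Fgg, a fibrinogen chain gene, at 21.8 CPM in allograft 3. Matched liver was also collected, per the labels' protocols, and the part of liver RNA in other results was not tested beyond leaving out these tumours. Fgg was called lower in primary tumours with all 48 tumours (adjusted p = 0.0305), and its adjusted p without allograft 3 was 0.911. The call was lost without primary tumours 2, 6 or 8 as well. Of the epithelial markers 4 of 6 were tested (median 0.32, and -0.45 without primary tumour 8, 0 called).

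The same contrast was fitted within each of the other 3 arms, and each fit called more genes. Tumours of these arms also entered the spread of the fit of 48, so those calls are not independent of them. At 0 Gy with isotype 1738 of 17357 genes were called (10.0%), at 0 Gy with anti-PD-1 1560 of 17455 (8.94%) and at 20 Gy with isotype 839 of 17624 (4.76%). The biological coefficients of variation there were 0.440, 0.408 and 0.444. In all 3 of those arms 274 genes were called with 1 sign, 173 higher and the rest lower in primary tumours. After the combination 267 of the 274 (97.4%) had the same sign, 202 (73.7%) had that sign with an unadjusted p below 0.05, and 0 had the opposite sign at that level. By direction the share was 87.9% of the higher genes (152 of 173) and 49.5% of the lower genes (50). The median log2 fold change of the 173 higher genes was 1.78 after the combination and 2.61, 2.41 and 2.25 at 0 Gy with isotype, 0 Gy with anti-PD-1 and 20 Gy with isotype. That of the lower genes was -0.83 against -1.60, -1.60 and -1.49. These genes were chosen by their calls in the other arms, so the medians are a description with no test.

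The 77 higher and 61 lower genes that stayed called in every leave-one-out fit of 48 tumours were read in those arms too. With the same sign, 92 (66.7%) were called at 0 Gy with isotype, 94 (68.1%) at 0 Gy with anti-PD-1 and 75 (54.3%) at 20 Gy with isotype, and 0 were called with the opposite sign. In all 3 arms 60 were called, Gm17833 among them, and 27 in none. Sgce had log2 fold changes of 2.55, 2.19 and 2.27 in these arms in that order, Peg10 2.68, 3.33 and 3.42, Zfp51 -2.12, -1.75 and -1.24, and Dmrta2 -6.32, -6.79 and -4.41, all called in each arm. Tbx15 was at 1.66, 1.48 and 1.36, with adjusted p = 0.0516 in the last. Bmp6 was among those called in none, at 0.89, 0.92 and 0.68. Its mean in primary tumours was 19.6 CPM (SD 11.6, n = 8) after the combination and 6.84 to 7.80 CPM in the other arms, and in allografts 3.19 CPM (SD 1.61, n = 4) and 3.74 to 4.28 CPM. Cd244a was at -1.08, -1.05 and -1.81, called after 20 Gy with isotype. Gzmb was at -0.96, -2.68 and -0.80, called at 0 Gy with anti-PD-1.

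**Figure D5:**
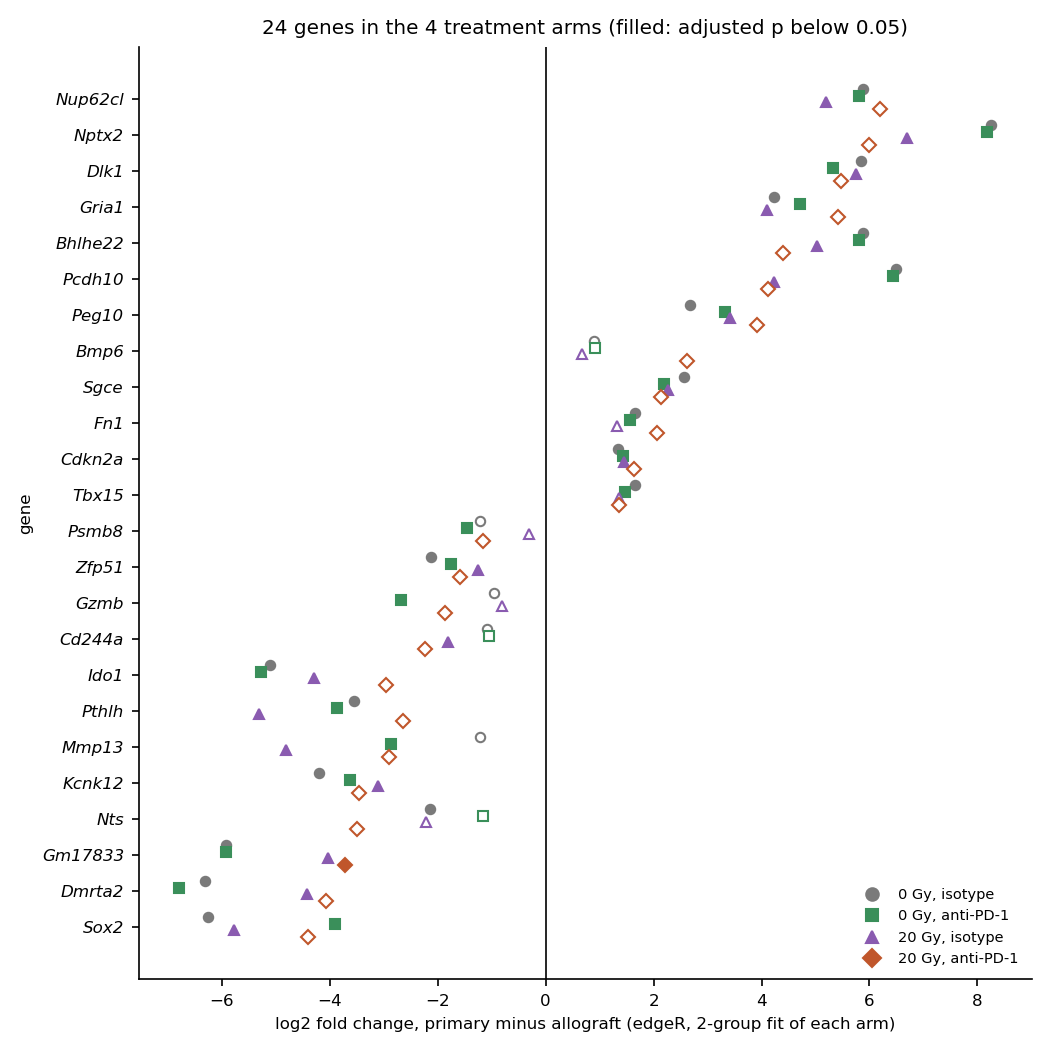
Log2 fold change of primary against allograft tumours (horizontal axis) of 24 genes in the 4 treatment arms, each from its own fit of 12 tumours; filled symbols have an adjusted p below 0.05. Sgce, Peg10 and Zfp51 keep the same sign in all 4 arms. Bmp6 is at 2.62 after 20 Gy with anti-PD-1 and at 0.68 to 0.92 in the others, a difference that edgeR's interaction tests did not call.

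Whether the contrast differed between arms was tested directly as an interaction in the fit of all 48 tumours, and edgeR called 0 of 19327 genes (0%) against each of the other 3 arms. Unadjusted p-values below 0.05 were found for 1239 genes (6.41%) against 0 Gy with isotype, 922 (4.77%) against 0 Gy with anti-PD-1 and 1864 (9.64%) against 20 Gy with isotype. The last number was 811 without allograft 3, 962 without allograft 2 and 3286 without allograft 4. DESeq2 called 4 (Abi1, Skint3 and Nr4a1 among them), 3 (Ppbp, Car4 and Rem2) and 2 (Skint3 and Dmp1) of them. The smallest p against 0 Gy with isotype was that of Abi1, an actin regulator, at an interaction of -0.69 on the log2 scale (adjusted p = 0.250). Abi1 was at 136.9, 201, 152 and 141.6 CPM in allografts and 92.0 to 131.3 CPM in primary tumours after the combination, and at 90.0 to 110.6 and 102.8 to 132.6 CPM at 0 Gy with isotype. At 20 Gy with isotype the ranges were 122.3 to 161.6 and 101.1 to 123.8 CPM. Groups did not overlap after the combination, barely overlapped at 20 Gy with isotype and overlapped at 0 Gy with isotype. For the early response gene Nr4a1 the interaction was 3.40 (adjusted p = 0.384), with an allograft mean of 172 CPM (SD 97.5, n = 4) at 0 Gy with isotype and 57.5 CPM (SD 62.6, n = 4) after the combination. The primary tumours enter this interaction too, and their Nr4a1 means are not given here. Without allograft 4 Nr4a1 was the 1 gene called against 0 Gy with isotype. For Rian the interactions were -2.78, -2.40 and -2.61 in the order of the arms above (adjusted p = 0.384, 0.774 and 0.512). Its allograft mean was 21.0 CPM (SD 20.6, n = 4) after the combination, set by allograft 2 at 50.8 CPM, and its primary mean was 76.6 CPM (SD 30.6, n = 8). In the other arms these means were 7.58 to 10.7 CPM and 174 to 219 CPM. Bmp6 had interactions of 1.75, 1.77 and 2.01 (adjusted p = 0.689, 0.905 and 0.512).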

How the data were processed

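RNA from bulk tumours was captured by poly(A), and stranded libraries were made with the KAPA kit, per the labels' protocols. The authors deposited raw whole-number counts per gene for all 48 tumours. Per the submitters' processing notes Trimmomatic 0.36, STAR and HTSeq were used with build mm10; the counting strand, annotation and filters are not given in the sources used here. Ensembl IDs were named from GENCODE M21 (36796 of 36854 matched), and promoters came from RefSeq (GRCm38.p6).

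Groups were taken from the labels. Counts were filtered with filterByExpr, scaled by TMM and tested with edgeR 4.0.16 (quasi-likelihood F test, R 4.3.3) and Benjamini-Hochberg adjustment at 0.05, in a fit of the 12 tumours; SE was taken as the size of the log2 fold change over the root of F. The other arms had fits of their own, and interactions came from a fit of all 48 tumours. CPM values are counts scaled to the TMM-normalised library size. The scripts were tested on simulated data. DESeq2 1.42.0, other scalings, no filter, covariates and leaving out each tumour were alternatives. 

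Named genes were to be the smallest p, the largest folds and list members among called genes. As 1 gene was called, the rule was applied, after values were seen, to genes called in the fit of 48. The comparison, gene lists and members were chosen with earlier results of these data known. No 2 libraries agreed within sampling noise. Some results are not reported here.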

Additional observations from a re-analysis of the deposited data

Results flagged for a closer look

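In 258 sets of values, 1 gene or list in 1 of both groups each, a tumour was sought whose gap to its nearest neighbour is large for the group's range (Dixon's 95% critical value). Such a gap was found in 23 sets, against 12.9 expected by chance at 1 in 20. Sets that share tumours and gene groups are not independent.

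Primary tumour 5 held 6 of them. It was lowest of the 8 primary tumours for Gzmb (4.45 CPM), Serpinb9 (7.62 CPM), Psmb10 (39.5 CPM) and the complement gene C1qa (113.6 CPM), and highest for Alb (11.7 CPM) and the liver list sum (22.6 CPM). Primary tumour 4, the most muscle-rich, was lowest for Peg10 (4.17 CPM), Mirg (0.751 CPM), Cdkn2a (25.7 CPM) and Cdkn2b (6.25 CPM). Primary tumour 8 was highest for Col6a1 (4148 CPM) and lowest for the glycerol kinase gene Gk (5.78 CPM), and primary tumour 3 was lowest for Slc6a8 (76.6 CPM).

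Allograft 3 was highest of the 4 allografts for Alb (307 CPM), Fgg (21.8 CPM) and the liver list sum (468 CPM), and lowest for Dlk1 (1.13 CPM). Allograft 2 was highest for Adgre1 (578 CPM) and lowest for Ido1 (3.71 CPM) and D1Ertd622e (54.6 CPM). Allograft 4 was highest for Bmp6 (5.59 CPM), Foxp3 (6.36 CPM) and Tgfbr3 (142.5 CPM). The part of muscle or liver tissue in these values was not tested.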

How the results depend on the processing

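No paired analysis was possible because the labels give no replicate numbers that link tumours across groups. The 1 gene called after the combination became 1309 in the fit of all 48 tumours, 1005 with DESeq2 (731 higher, 274 lower), 95 higher and 40 lower without primary tumours 4 and 8, 5 with a muscle covariate, 2 with an Xist covariate and 2 with robust empirical Bayes; other scalings, no filter and leaving out mitochondrial genes also called Gm17833 alone, while the identifier digit as a covariate, which leaves allograft 1 alone against the primary tumours, gave 1 call that was not Gm17833 (adjusted p = 0.177). Leaving out 1 tumour gave 0 to 239. In the fit of 48 the count was 782 with no filter, 2071 with DESeq2 (64.3% higher against 55.0%) and 155 to 2356 leaving out 1 tumour. DESeq2 called 2868, 2756 and 1875 genes at 0 Gy with isotype, 0 Gy with anti-PD-1 and 20 Gy with isotype, and leaving out 1 tumour gave 732 to 2187, 634 to 1921 and 260 to 1150. For the interactions DESeq2 called 4, 3 and 2, and leaving out 1 tumour gave 0 to 1, 0 to 0 and 0 to 0. The cause of these shifts was not tested.

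Of the gene results 15 changed sign in some alternative. Against allograft 1 alone, as the identifier digit covariate leaves it, the log2 fold change was 0.083 for Adgre1, 0.68 for Alb, 1.42 for Atp12a, 0.14 for Car4, 0.023 for Cd3e, 0.46 for Csf3r, 0.0020 for Fgg and 0.15 for Mki67. With Xist it was -1.86 for Acta1, -1.01 for Dmp1, -0.37 for Foxp3, -2.92 for Myh4 and -0.21 for Nr4a1. Without primary tumours 4 and 8 it was -1.04 for Acta1, -0.11 for Cdkn1a, -0.45 for Foxp3 and -1.10 for Myh4. Leaving out 1 tumour gave -0.63 to 0.031 for Adgre1, -0.066 to 0.37 for Cdkn1a, -0.60 to 0.97 for Foxp3, -0.36 to 0.27 for Mki67, -2.35 to 0.32 for Xist, -7.49 to 1.202 for Alb, -0.046 to 1.78 for Acta1 and -0.38 to 1.38 for Nr4a1. Genes near 1 CPM rest on few counts in single tumours.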

Other observations

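Some genes outside the lists were picked singly from the stable calls after their values were seen, so they stand for no group. Ptprc, which encodes the leukocyte surface protein CD45, was at 522 CPM (SD 63.9, n = 4) in allografts and 193 CPM (SD 128.5, n = 8) in primary tumours. Its ranges, 466 to 614 and 54.3 to 390 CPM, did not overlap (log2 fold change -1.43, SE 0.46, edgeR adjusted p = 0.172 with 12 and 0.0108 with 48 tumours). Cd72, a B cell and myeloid receptor gene, was at 307 to 533 and 11.5 to 292 CPM (adjusted p = 0.167 and 0.00918 in the same fits). Stap1, an adaptor gene of leukocytes, was at 13.0 to 23.1 and 0.656 to 10.1 CPM (adjusted p = 0.105 and 0.00302). Irf3, a transcription factor of the interferon response, was at 40.5 to 56.2 and 29.1 to 35.0 CPM (adjusted p = 0.0966 and 0.00140). The groups did not overlap for Cd72, Stap1 and Irf3 either.

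Of 15 hypoxia and glycolysis genes 14 were above 0 (median log2 fold change 0.53), with a summed level of 3039 to 3857 CPM in allografts and 2817 to 10135 CPM in primary tumours. The highest sum was that of primary tumour 4, the muscle-rich one, and the next was 5409 CPM in primary tumour 6. Of 17 cholesterol synthesis genes 15 were above 0 (median 0.27). None of either list was called in the fit of 12 or of 48 tumours, by edgeR.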
